A study of Mus musculus with 30 samples.

Results

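The 9 genes followed here encode myosin chains and proteins that act on them, and were measured in 30 mouse hearts. These are the heavy chains Myh6, Myh7 and Myh7b, the light chains Myl2, Myl3, Myl4 and Myl7, the myosin binding protein Mybpc3 and the light chain kinase Mylk3. They were chosen by symbol, and all 9 were found among the 55487 gene identifiers of the count table. Hearts were collected 8 weeks after sham surgery or transverse aortic constriction (TAC), in which a clip on the aorta raises the pressure load on the left ventricle. Per the series description, the question was what the fatty acid transporter Cpt1a does in the loaded heart, with Cpt1a lowered in the heart in one cohort and added in the other.

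In the floxed cohort, FF mice carried the floxed Cpt1a allele and KO mice were labelled as cardiac specific Cpt1a knockouts, giving FF_sham, FF_TAC, KO_sham and KO_TAC with 4 hearts each. What drives the recombinase, and whether FF mice carry it, is not given in the sources used here. In the second cohort, C57Bl/6 mice received PBS (PBS_sham and PBS_TAC, 3 hearts each) or AAV9.Cpt1a, a viral vector with Cpt1a, driven by the cardiac troponin T promoter according to the design text (AAV_sham and AAV_TAC, 4 hearts each). This cohort has no group given an empty vector. Age and sex are not given, nor which of the clip widths in the labels each mouse had. Because the KO_TAC titles mention sham as well as TAC, the genotype label and the treatment label set each group.

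Myosin is the motor of the sarcomere. Each molecule has a pair of heavy chains, which bind actin and split ATP, and each heavy chain carries an essential and a regulatory light chain. In the adult mouse ventricle the fast α heavy chain (Myh6) prevails, and the slower β heavy chain (Myh7) is the main fetal form, long used as a marker of a loaded or failing rodent heart. Myl2 (regulatory) and Myl3 (essential) are the ventricular light chains, and Myl7 (regulatory) and Myl4 (essential) are their atrial counterparts. Mybpc3 tethers and restrains myosin heads, and Mylk3 is the cardiac kinase that phosphorylates the regulatory light chain.

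The 3 heavy chain genes each hold a microRNA gene in an intron on the same strand, and the mature sequences are shown because they tie the genes into a family by their seeds. Coordinates and sequences are from RefSeq on GRCm38.p6, and capitals mark the seed, bases 2 to 8. The first lies in intron 29 of Myh6, the second in intron 31 of Myh7 and the third in intron 19 of Myh7b.
miR-208a-3p, chr14:54949072-54949093, minus strand: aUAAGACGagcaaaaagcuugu
miR-208b-3p, chr14:54975710-54975731, minus strand: aUAAGACGaacaaaagguuugu
miR-499-5p, chr2:155622893-155622913, plus strand: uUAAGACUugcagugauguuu
All 7 seed bases were the same in miR-208a-3p and miR-208b-3p, and miR-499-5p shared 6 of the 7. Over the whole mature sequence, 19 bases of miR-208b-3p and 12 of miR-499-5p matched miR-208a-3p at the same position. Mature microRNAs are not measured by libraries of poly(A) RNA, so the levels given here are those of the host genes only.

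Myh6 (chromosome 14, 54941921 to 54966927) and Myh7 (chromosome 14, 54970684 to 54994626) lie head to tail on the minus strand. The 250 bases before the RefSeq start of each, which for Myh6 lies inside the GENCODE gene span just given, are shown because their transcripts moved in opposite directions in the knockout hearts under load. Capitals mark the 1 match in each to CATTCC, the core of the M-CAT element bound by TEAD factors, which in both lies on the opposite strand and so reads GGAATG here.
Myh6 promoter, chr14:54966608-54966857, minus strand: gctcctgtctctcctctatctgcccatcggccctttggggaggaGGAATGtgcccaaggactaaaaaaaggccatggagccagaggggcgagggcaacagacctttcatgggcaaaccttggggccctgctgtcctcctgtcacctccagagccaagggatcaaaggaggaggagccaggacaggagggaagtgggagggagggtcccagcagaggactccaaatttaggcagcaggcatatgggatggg
Myh7 promoter, chr14:54994627-54994876, minus strand: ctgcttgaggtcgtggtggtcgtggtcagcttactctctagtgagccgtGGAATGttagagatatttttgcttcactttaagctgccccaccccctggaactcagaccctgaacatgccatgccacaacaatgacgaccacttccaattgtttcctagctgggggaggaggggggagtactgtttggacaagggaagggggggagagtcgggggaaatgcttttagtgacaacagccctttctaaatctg
The match lay 206 to 201 bases before the Myh6 start and 201 to 196 bases before the Myh7 start. CATTCC was searched on both strands and occurs in 12.6% of 32851 mouse promoter windows of that length. Another Myh7 start in the RefSeq table has no match in its window. A match of letters is a description and says nothing about binding in these hearts.

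Total counts per library ran from 14839758 to 22070373, and the 9 genes took 2.80% to 5.04% of them. Levels are given as CPM, counts scaled to a library of 1e6 after TMM scaling over the 30 libraries, and changes as log2 fold changes with their standard errors (SE) from edgeR's quasi-likelihood test. A change counted as called when its p, adjusted by Benjamini-Hochberg over all genes tested (15596 for the floxed hearts, 15745 for the AAV9 ones), was under 0.05. Nothing says how the hearts of a group relate to each other, so p-values measure the spread between these samples only. The 6 cardiomyocyte markers summed to 13647 CPM or more in every library and the 4 ventricular markers to 866 CPM or more. Both of these lowest sums lay in PBS_sham, and the medians over the 30 libraries were 36646 and 3046 CPM. Outside PBS_sham the lowest sums were 30440.5 CPM in KO_sham and 1577 CPM in KO_TAC.

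Some libraries stood apart in ways that touch these genes. Cpt1a was 46.8 CPM in the library labelled KO_sham 2, inside the FF_sham range of 38.6 to 53.4, and 20.8 to 23.8 CPM in the other KO_sham libraries. Cpt1a stood at 20.96 and 16.7 CPM in the libraries labelled FF_TAC 2 and 3, next to 11.3 to 19.7 CPM in KO_TAC. In the AAV9 cohort it was 36.7 to 69.9 CPM in PBS_sham and 54.8 to 85.8 CPM in AAV_sham. After TAC it was 39.5 to 59.0 CPM with PBS and 43.8 to 61.5 CPM with the vector, with means of 51.4 and 53.6 CPM. Vector and PBS hearts thus overlapped in Cpt1a counts, with and without load. Summed haemoglobin transcripts were 1.40 to 51.1 CPM in 7 libraries, namely FF_TAC 2 and 3, KO_sham 2 and all 4 of KO_TAC, with 294 CPM or more elsewhere. The same 7 libraries had 2241 to 5971 CPM of 12 early response genes such as Fos and Egr1, against 247 to 358 CPM in the other 9 floxed libraries. PBS_sham 3 had the largest TMM factor, 1.35, with 2192 CPM of 7 smooth muscle markers against at most 590.0 CPM in any other library. Atrial tissue also varied, as the light chains below show.

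Per kilobase of exon, Myh6, Myl2 and Myl3 led, with medians over the 30 libraries of 3916, 3465 and 2766 CPM per kb. Mybpc3 followed at 1056, Mylk3 at 160, Myh7 at 99.1 and Myh7b at 28.5 CPM per kb. Myl4 and Myl7 had medians of 1.27 and 1.17 CPM per kb and spanned the widest range of levels. Myh6 and Myh7 are the only pair of members whose longest transcripts share stretches of 100 bases, at 11.4% of such windows in Myh6 and 11.2% in Myh7, and the sources do not say where reads from these stretches were counted.

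**Figure D1:**
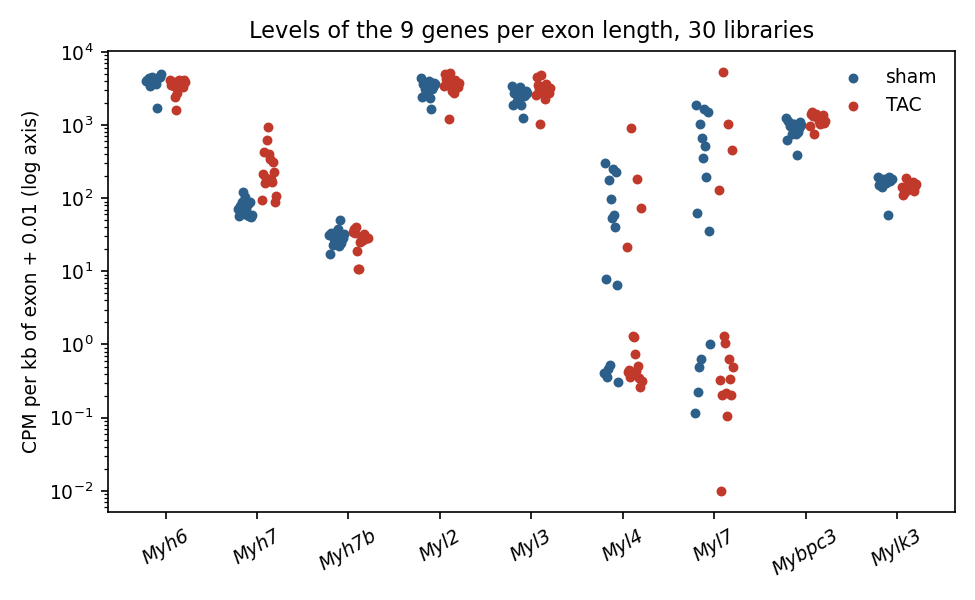
Level of each gene in CPM per kilobase of exon, plus 0.01, on a log axis, with 1 point per library (15 sham in blue, 15 TAC in red). Myh6, Myl2 and Myl3 sit highest, Myh7 is the gene whose TAC points spread upward, and Myl4 and Myl7 fall into a high and a low cloud.

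Myh7 was higher after TAC in all 4 backgrounds, and its libraries did not overlap between sham and TAC in any of them. In the floxed controls its level was 623, 487, 677 and 523 CPM in FF_sham 1 to 4, and 803, 1828, 3721 and 1390 CPM in FF_TAC 1 to 4. In the knockouts it was 772, 1058, 589 and 905 CPM in KO_sham 1 to 4, and 1653, 5460, 8232 and 3483 CPM in KO_TAC 1 to 4. The KO_TAC hearts thus held the 2 highest levels of the series, while KO_TAC 1 lay below FF_TAC 2 and FF_TAC 3. Both FF_TAC libraries with little haemoglobin, 2 and 3, stood above the other 2.

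In the AAV9 cohort Myh7 was 618, 502 and 719 CPM in PBS_sham 1 to 3, and 2926, 1587 and 1434 CPM in PBS_TAC 1 to 3. With the vector it was 496, 764, 470 and 507 CPM in AAV_sham 1 to 4, and 2683, 1963, 772 and 916 CPM in AAV_TAC 1 to 4. The vector hearts split into a high and a low pair after TAC, and the lowest of them, AAV_TAC 3, was only just above the highest vector sham. Over both cohorts 12 of 15 TAC libraries lay above every sham library.

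As changes, Myh7 rose with TAC in the knockouts (KO_TAC against KO_sham, log2 fold change 2.51, SE 0.46, edgeR adjusted p 0.0029, a 5.69-fold difference, 4 of 4 libraries above all of KO_sham). It also rose with TAC averaged over the PBS and vector hearts (1.61, SE 0.28, edgeR adjusted p 0.0266). The single comparisons of the other backgrounds did not pass the threshold over all genes: 1.73 (SE 0.45, edgeR adjusted p 0.328) in the floxed controls, 1.72 (SE 0.43, adjusted p 0.140) with PBS and 1.499 (SE 0.37, adjusted p 0.243) with the vector. DESeq2 called Myh7 in each of these 3, with adjusted p of 0.0140, 0.0054 and 0.0072. Over all genes it called 175 of 15596, 370 of 15745 and 117 of 15745 there. Of all genes tested by edgeR, 25.8% were called in KO_TAC against KO_sham, 14.3% of them higher and 11.5% lower as shares of all genes. The averaged TAC effect called 0.908% of genes, and the FF, PBS and vector comparisons called 0.0%, 0.0318% and 0.00635%.

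With a term for the 7 libraries low in haemoglobin, the Myh7 rise in the knockouts was 1.77 (edgeR adjusted p 0.101) and no longer passed. Over all genes, that term cut the calls in this comparison from 4031 to 273 of 15596. In KO_TAC against FF_TAC it cut them from 2235 to 1127. Only FF_TAC and KO_sham held both low and high libraries, so the term rests on those groups. Among haemoglobin-high libraries alone, FF_TAC against FF_sham (2 against 4) gave 0.92, edgeR adjusted p 0.543, in a fit that called 0 of 15689 genes. The averaged TAC call was lost with a covariate for atrial transcripts (1.44, edgeR adjusted p 0.0910) and on leaving out any one of 8 of the 14 libraries, with values of 1.42 to 1.71. Those 8 libraries were PBS_sham 2, PBS_TAC 1 and 3, AAV_sham 1, 3 and 4, and AAV_TAC 1 and 2. The knockout call held in all 8 of its fits without one library, at 2.09 to 2.78. In bulk tissue, more Myh7 RNA per myocyte and more cells that make it cannot be told apart.

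**Figure D2:**
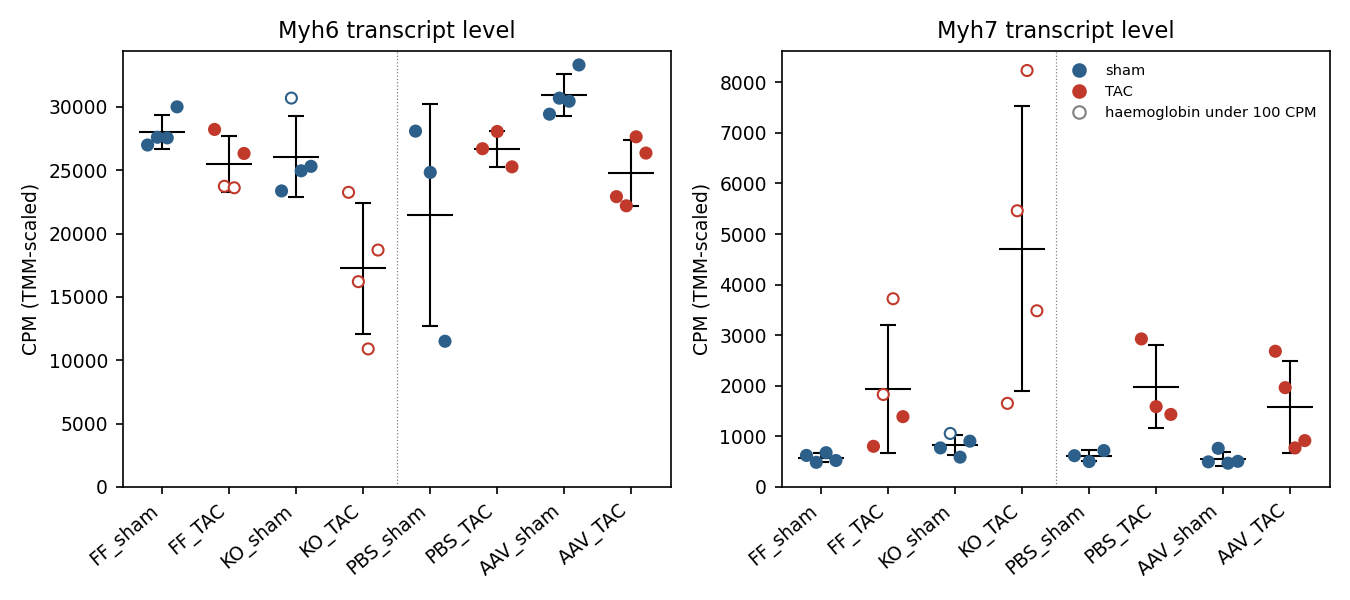
Myh6 (left) and Myh7 (right) in CPM for each library by group, with black bars for the group mean and SD (n = 4, or 3 for PBS) and open circles for libraries with haemoglobin under 100 CPM. KO_TAC spans 10896 to 23257 CPM of Myh6 and 1653 to 8232 CPM of Myh7, and every TAC group lies above its own sham group for Myh7.

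Without load, the knockout and vector groups were not called different from their controls in Myh7. KO_sham against FF_sham gave 0.53 (SE 0.44, edgeR adjusted p 0.9997) and AAV_sham against PBS_sham −0.11 (SE 0.39, adjusted p 0.864). Under load the knockouts had more Myh7 than the floxed controls, by 1.31 (SE 0.44, edgeR adjusted p 0.0610), which missed the threshold, and 2 of 4 KO_TAC libraries lay above all of FF_TAC. DESeq2 and voom called that difference (adjusted p 0.0161 and 0.0011), beside 3058 and 6002 of 15596 genes. The edgeR test called it without FF_TAC 3 (1.83, adjusted p 0.0135) or without KO_TAC 1 (1.57, adjusted p 0.0122). Restricted to libraries low in haemoglobin (4 KO_TAC and 2 FF_TAC), the difference was 0.77 (edgeR adjusted p 0.725), in a fit that called 0 of 16941 genes. The vector under load gave −0.33 (SE 0.39, edgeR adjusted p 0.99999), with 2 SE reaching from −1.11 to 0.44.

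The response to TAC itself was compared between backgrounds by the interaction terms. For Myh7 the knockout by TAC term was 0.78 (SE 0.62, edgeR adjusted p 0.594) and the vector by TAC term −0.23 (SE 0.55, adjusted p 0.880). Neither passed, with intervals of 2 SE from −0.46 to 2.02 and from −1.33 to 0.88. Voom with sample weights called the knockout term for Myh7 (1.70, adjusted p 0.0252). The 2 interactions called 0.0449% and 0.00635% of all genes in edgeR and none of the 9 members. They held 1 and 0 members at an unadjusted p under 0.05 in edgeR, beside 2049 of 15596 and 1094 of 15745 genes. DESeq2 called 0 and 0 members at its adjusted threshold, beside 377 and 16 of these genes. Voom called 3 and 0 members, beside 2930 and 13 genes.

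Myh6 was lower in KO_TAC than in either KO_sham or FF_TAC. It was 26993, 27603, 27554 and 30004 CPM in FF_sham 1 to 4, and 28221, 23736, 23617 and 26324 CPM in FF_TAC 1 to 4. It was 23367, 30697, 24956 and 25309 CPM in KO_sham 1 to 4, and 23257, 16207, 10896 and 18701 CPM in KO_TAC 1 to 4. All 4 KO_TAC libraries lay below all of KO_sham and all of FF_TAC, though KO_TAC 1 was close to KO_sham 1. KO_TAC 3 held at once the least Myh6 and the most Myh7 of the 30 hearts.

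Myh6 fell with TAC in the knockouts by 0.59 on the log2 scale (SE 0.17, edgeR adjusted p 0.0242, 4 of 4 libraries lower) and was lower in KO_TAC than in FF_TAC (−0.54, SE 0.17, edgeR adjusted p 0.0496, 4 of 4 lower). The second comparison called 14.3% of all genes, 7.53% higher and 6.80% lower. In the floxed controls the TAC difference was −0.15 (SE 0.17, edgeR adjusted p 0.730), and the interaction was −0.43 (SE 0.24, adjusted p 0.460). Both calls ended with the haemoglobin term, at −0.60 (edgeR adjusted p 0.161) and −0.55 (adjusted p 0.120). The first was lost without KO_sham 2, KO_TAC 2 or KO_TAC 3, and the second without any one of FF_TAC 1, 3 and 4 and KO_TAC 2, 3 and 4. With only the groups compared in the fit neither was called (adjusted p 0.0974 and 0.213), and for the second neither with no filter on low counts (0.0669) nor with all 30 libraries in 1 fit (0.0707).

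In the AAV9 cohort Myh6 was 28087, 24829 and 11501 CPM in PBS_sham 1 to 3 and 26700, 28059 and 25269 CPM in PBS_TAC 1 to 3. It was 29427, 30691, 30448 and 33311 CPM in AAV_sham 1 to 4 and 22914, 22193, 27639 and 26355 CPM in AAV_TAC 1 to 4. The vector hearts after TAC lay below all of the vector shams, but no comparison of this cohort called Myh6. PBS_sham 3, the library rich in smooth muscle markers, held less Myh6 than any heart but KO_TAC 3. By group mean, AAV_sham stood highest in Myh6 and KO_TAC lowest, and no group differed from its neighbour in that order beyond the spread between libraries.

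The balance of the heavy chains is given as the share of Myh7 in the summed counts of Myh6 and Myh7, as a description. It was 2.26%, 1.73%, 2.40% and 1.71% in FF_sham 1 to 4, and 2.77%, 7.15%, 13.6% and 5.01% in FF_TAC 1 to 4. In the knockouts it was 3.20%, 3.33%, 2.31% and 3.45% in KO_sham 1 to 4, and 6.63%, 25.2%, 43.0% and 15.7% in KO_TAC 1 to 4. So Myh7 stayed the minor chain in every heart and came closest to Myh6 in KO_TAC 3, where its share divided by exon length was 37.1%.

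With PBS the share was 2.15%, 1.98% and 5.89% in the sham hearts 1 to 3, and 9.88%, 5.35% and 5.37% in the TAC hearts 1 to 3. With the vector it was 1.66%, 2.43%, 1.52% and 1.499% in the sham hearts 1 to 4, and 10.5%, 8.13%, 2.72% and 3.36% in the TAC hearts 1 to 4. PBS_sham 3 had the highest share of any sham heart, through low Myh6. The mean share ran from 1.78% ± 0.44 (SD, n = 4) in AAV_sham to 22.6% ± 15.6 (SD, n = 4) in KO_TAC, and 3 groups under load lay between 6.17% and 7.14%. Divided by exon length, the KO_TAC mean was 19.0% ± 13.7 (SD, n = 4).

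**Figure D3:**
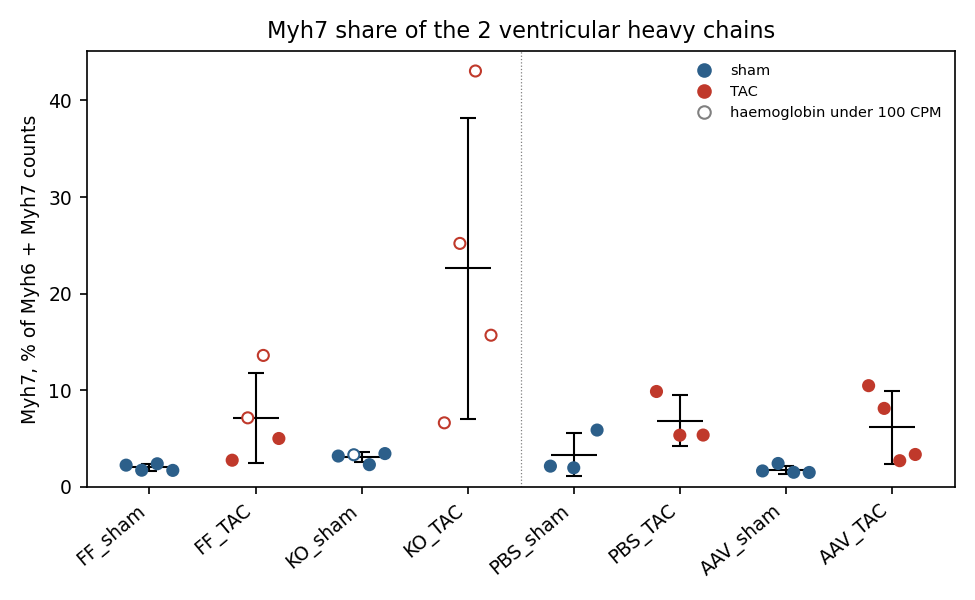
Myh7 counts as a percent of Myh6 plus Myh7 counts in each library by group, with black bars for the mean and SD (n = 4, or 3 for PBS) and open circles for libraries with haemoglobin under 100 CPM. The KO_TAC hearts spread from 6.63% to 43.0%, and the highest of the other TAC hearts is FF_TAC 3 at 13.6%.

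Myh7b (chromosome 2, 155611212 to 155634307, plus strand), the slow myosin gene that hosts miR-499, did not follow Myh7 in the knockouts. It was 211, 115, 225 and 216 CPM in FF_sham 1 to 4 and 228, 248, 225 and 264 CPM in FF_TAC 1 to 4. It was 153, 184, 219 and 236 CPM in KO_sham 1 to 4 and 127, 70.7, 71.4 and 166 CPM in KO_TAC 1 to 4. The 2 KO_TAC hearts with the most Myh7, 2 and 3, had the least Myh7b of the series, and all of KO_TAC lay below all of FF_TAC. In the floxed controls Myh7b had the same direction as Myh7. All 4 FF_TAC libraries lay above all of FF_sham, though barely, with a lowest TAC level of 224.79 and a highest sham level of 224.70 CPM.

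Myh7b fell with TAC in the knockouts by 0.85 on the log2 scale (SE 0.26, edgeR adjusted p 0.0294, 3 of 4 libraries below all of KO_sham) and was lower in KO_TAC than in FF_TAC (−1.12, SE 0.27, adjusted p 0.0120, 4 of 4). The floxed controls gave 0.32 with TAC (SE 0.26, edgeR adjusted p 0.647), and the interaction was −1.17 (SE 0.37, adjusted p 0.198). In the fit with a haemoglobin term, KO_TAC against FF_TAC was still called at −1.08 (edgeR adjusted p 0.0430), while the TAC call in the knockouts was lost (−0.78, adjusted p 0.222). The latter was also lost without KO_sham 3 or 4 or without KO_TAC 2 or 3. With only the groups compared in the fit both calls were lost (adjusted p 0.0720 and 0.0578). In the AAV9 cohort Myh7b ranged from 146 to 338 CPM and was called in no comparison. All 4 AAV_TAC libraries lay above all of PBS_TAC, with a lowest level of 187.11 against a highest of 187.07 CPM. The TAC and sham libraries of this cohort overlapped.

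Beyond the heavy chains no member was called in any of the 11 comparisons by edgeR. The members called were thus 3 of 9 in KO_TAC against KO_sham (Myh7 higher, Myh6 and Myh7b lower), 2 of 9 in KO_TAC against FF_TAC (both lower) and 1 of 9 in the averaged TAC effect. In KO_TAC against KO_sham that is 1 of 9 higher and 2 of 9 lower, beside the 14.3% and 11.5% of all genes given above. None of the 9 was called in FF_TAC against FF_sham, where 2 had an unadjusted p under 0.05 and DESeq2 called 1, or with TAC under PBS (2, and 1 by DESeq2) or the vector (1, and 1 by DESeq2). Over all genes, 1733 of 15596, 2908 of 15745 and 1110 of 15745 had such an unadjusted p in the FF, PBS and vector comparisons. None was called between the sham groups, where edgeR called 0.0% of genes for KO_sham and 0.0127% for AAV_sham, or in AAV_TAC against PBS_TAC, where it called 0.0381%. In those 3 no member had an unadjusted p under 0.05, and DESeq2 and voom called none.

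**Figure D4:**
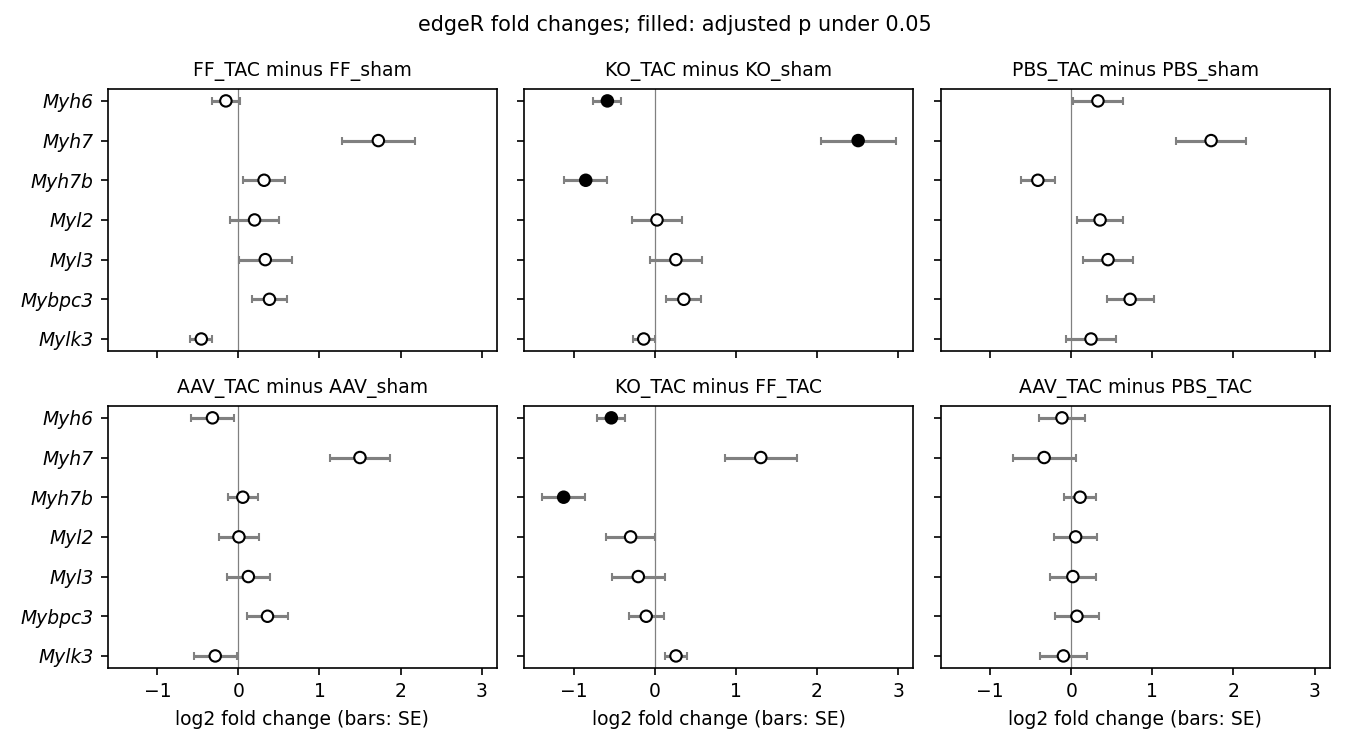
Log2 fold changes with SE from edgeR for 7 genes in 6 comparisons, with filled points for adjusted p under 0.05; Myl4 and Myl7 are left out for their large SE. Filled points occur only for Myh6, Myh7 and Myh7b in KO_TAC against KO_sham and for Myh6 and Myh7b in KO_TAC against FF_TAC.

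The ventricular light chains were abundant and varied widely between libraries. Myl2 (chromosome 5) ran from 2345 to 9933 CPM and Myl3 (chromosome 9) from 2097 to 9957 CPM over the 30 hearts. Both were lowest in KO_TAC 1 and highest in KO_TAC 2, so the ends of each range lay in 1 group. In FF_sham the mean of Myl2 was 6849 ± 1606 CPM (SD, n = 4) and in FF_TAC 7953 ± 1475 CPM (SD, n = 4), with overlapping libraries. In AAV_sham and AAV_TAC Myl3 was 5519 ± 426 and 6002 ± 467 CPM (SD, n = 4 each). The smallest adjusted p over the 11 comparisons in edgeR was 0.366 for Myl2 and 0.404 for Myl3.

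The atrial light chains split the libraries within groups, though more sham than TAC hearts held atrial transcript. In 14 libraries Myl7 was 20.9 to 3168 CPM and Myl4 29.7 to 4262 CPM, and in the other 16 Myl7 was 0 to 0.755 CPM and Myl4 1.19 to 6.04 CPM. Sarcolipin (Sln), an atrial regulator of the calcium pump, made the same split, at 8.47 CPM or more in the 14 and at most 0.187 CPM in the 16. In the 14 libraries the ratio of Myl4 to Myl7 stayed between 0.888 and 1.63 while both levels varied widely. Each group held both kinds except PBS_sham, whose 3 libraries were all of the first kind. That kind made up 2 of 4 hearts in FF_sham and in KO_sham and 3 of 4 in AAV_sham, but 1 heart in each TAC group. Atrial content was thus uneven between sham and TAC hearts.

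The hearts with the most atrial transcript were spread over groups. KO_TAC 1 stood highest with 3168 CPM of Myl7, 4262 CPM of Myl4 and 1107 CPM of Sln, and it had the lowest Myl2 and Myl3. FF_sham 2 followed with 1116 CPM of Myl7, then PBS_sham 2 with 970 and AAV_sham 2 with 887 CPM. Bmp10, which marks the right atrium, was 508, 370 and 269 CPM in PBS_sham 2, PBS_TAC 2 and AAV_TAC 3, and under 1 CPM in every other library. The labels name the tissue as heart, and how much atrium each piece held is not given.

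**Figure D5:**
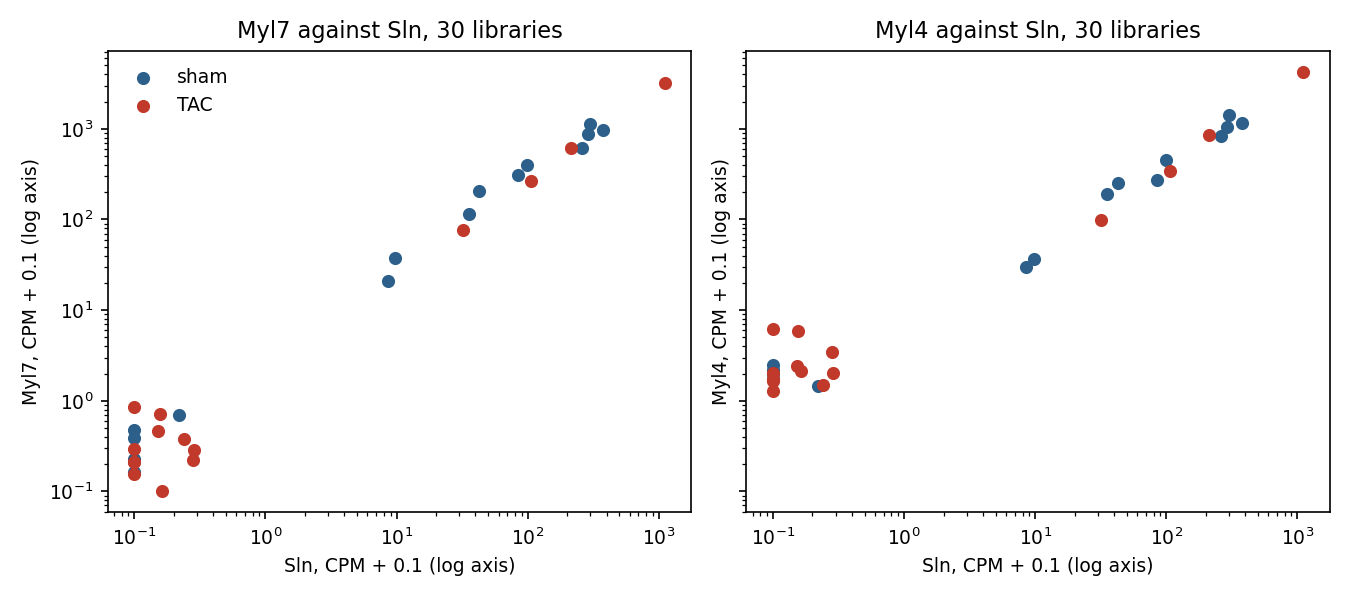
Myl7 (left) and Myl4 (right) against Sln, each as CPM plus 0.1 on log axes, with 1 point for each of the 30 libraries. The 14 libraries with Sln of 8.47 CPM or more rise along 1 line, and the 16 others form a separate cloud with Myl7 under 1 CPM.

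Fold changes of Myl4 and Myl7 between groups rested on which hearts held atrial transcript. In KO_TAC against FF_TAC the fitted change of Myl4 was 5.38 (SE 2.83, edgeR adjusted p 0.208), and without KO_TAC 1 it turned to −2.37. Against KO_sham it was 1.74 (SE 2.41, edgeR adjusted p 0.609), and −5.99 without KO_TAC 1. Among libraries with Sln under 1 CPM, Myl4 was 3.37, 5.76 and 6.04 CPM in the 3 KO_TAC hearts, 2.08 and 2.40 CPM in the 2 KO_sham hearts and 1.64 to 2.02 CPM in the 3 FF_TAC hearts. Fitted on those libraries alone, Myl4 was higher in KO_TAC than in KO_sham (1.17, edgeR adjusted p 0.0244) and than in FF_TAC (1.45, adjusted p 0.0135), a selection made after the values were seen. Myl7 in the same 3 KO_TAC hearts was 0.120 to 0.755 CPM, too low to read. All 3 hearts are also low in haemoglobin, whose part in the Myl4 difference was not tested.

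Mybpc3 (chromosome 2, 91118144 to 91136516, plus strand) was higher after TAC in mean in each background, without a call. It was 5155, 2603, 4745 and 4035 CPM in FF_sham 1 to 4 and 4092, 5940, 6275 and 5505 CPM in FF_TAC 1 to 4. It was 4008, 3122, 4249 and 4271 CPM in KO_sham 1 to 4 and 3184, 5478, 5925 and 5336 CPM in KO_TAC 1 to 4. Only FF_TAC 1 and KO_TAC 1 lay inside their sham ranges, and both belong to the libraries with atrial transcript.

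In the AAV9 cohort Mybpc3 was 4115, 3124 and 1599 CPM in PBS_sham 1 to 3 and 4755, 4335 and 5372 CPM in PBS_TAC 1 to 3, without overlap. With the vector it was 3326, 3830, 4601 and 4130 CPM in AAV_sham 1 to 4 and 5437, 5700, 4457 and 4754 CPM in AAV_TAC 1 to 4, where 3 of 4 lay above every sham. The TAC differences were 0.38 (SE 0.22), 0.36 (SE 0.22), 0.73 (SE 0.29) and 0.36 (SE 0.25) in the FF, KO, PBS and vector hearts, and 0.54 (SE 0.19, edgeR adjusted p 0.173) averaged over the last 2. Voom with sample weights called Mybpc3 in the knockouts (0.47, adjusted p 0.0370) and in the averaged effect (0.42, adjusted p 0.0212). It called 8336 of 15596 and 1219 of 15745 genes in these comparisons. Without PBS_sham 1 edgeR called Mybpc3 under PBS (1.05, adjusted p 0.0410), and without PBS_sham 1 or 3 in the averaged effect (0.71, adjusted p 0.0364, and 0.39, adjusted p 0.0371). The fit without PBS_sham 1 kept PBS_sham 3, the lowest in Mybpc3. It called 1796 of 16209 genes under PBS, against 5 in the main fit, and 1155 in the averaged effect, against 143. The fit without PBS_sham 3 called 720 of 15901 genes in the averaged effect. Without KO_TAC 1 edgeR called the knockout difference of Mybpc3 (0.51, adjusted p 0.0490), beside 6440 of 15802 genes.

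Mylk3 (chromosome 8, 85324303 to 85386345, minus strand) was lower in every FF_TAC heart than in every FF_sham heart. It was 829, 645, 773 and 731 CPM in FF_sham 1 to 4 and 607, 476, 592 and 517 CPM in FF_TAC 1 to 4, a difference of −0.46 (SE 0.14, unadjusted p 0.0042, edgeR adjusted p 0.328). AAV_TAC, at 544 to 714 CPM, also lay below AAV_sham, at 744 to 824 CPM. KO_TAC, at 561 to 821 CPM, overlapped KO_sham, at 616 to 787 CPM. The PBS hearts had the opposite sign and overlapped, at 701, 782 and 254 CPM in PBS_sham 1 to 3 and 666 to 688 CPM in PBS_TAC (0.24, SE 0.31, edgeR adjusted p 0.642). The low value is that of PBS_sham 3, the library rich in smooth muscle markers, and PBS_sham 1 and 2 lay above all of PBS_TAC. Averaged over the PBS and vector hearts, PBS_sham 3 included, the TAC difference of Mylk3 was −0.02 (SE 0.20, edgeR adjusted p 0.963). The smallest adjusted p for Mylk3 over the 11 comparisons was 0.204.

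Several members share exon bases with a gene on the other strand, and the strand setting of the authors' counting is not stated. How far this affects their counts, or those of the genes they overlap, is not known. For Myh7 the overlapping genes are Mhrt (484 bases), Gm31251 (523 bases) and Gm29015 (142 bases), and for Myh6 Gm49130 (114 bases). Myl3 shares 95 bases with Pth1r, Myl2 60 with Ccdc63, Myh7b 37 with Trpc4ap and Myl4 3 with Gm22000. Mybpc3, Myl7 and Mylk3 share none.

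Mhrt, a long noncoding RNA antisense to Myh7 that is known to oppose the switch to β myosin, was lower after TAC in the knockouts, where Myh7 was higher. It was 95.8, 118, 99.2 and 89.1 CPM in KO_sham 1 to 4 and 57.2, 59.1, 15.9 and 30.5 CPM in KO_TAC 1 to 4, with the least in the heart with the most Myh7. Mhrt fell by 1.29 on the log2 scale with TAC in the knockouts (SE 0.34, edgeR adjusted p 0.0146). The call was lost with the haemoglobin term (−1.13, SE 0.40, edgeR adjusted p 0.147). In the other backgrounds the TAC change of Mhrt was also negative, without a call. It was −0.34 (SE 0.33, edgeR adjusted p 0.695) in FF, −1.01 (SE 0.43, adjusted p 0.245) with PBS and −0.71 (SE 0.37, adjusted p 0.770) with the vector. All 4 AAV_TAC libraries lay below all of AAV_sham, while the FF and the PBS libraries overlapped. PBS_sham 3 held 346 CPM of Mhrt, against 102 and 82.2 CPM in PBS_sham 1 and 2. Mhrt had the second largest called change among the regulators of the myosin isoforms, a list of 23 genes of thyroid hormone signalling and of factors known to act on Myh6 and Myh7, chosen by role. Of its 21 tested genes, 7 fell and 2 rose in KO_TAC against KO_sham, beside 11.5% and 14.3% of all genes, with a median log2 fold change of −0.09 against 0.02 over all genes.

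Dio2, which makes the active thyroid hormone, rose by 2.98 (SE 0.62, edgeR adjusted p 0.0051) from 2.49 ± 1.56 to 19.5 ± 12.7 CPM (SD, n = 4 each). Hopx, a homeodomain cofactor, changed by −0.79 (SE 0.19, edgeR adjusted p 0.0110) and Thrb, a thyroid hormone receptor, by −0.78 (SE 0.19, adjusted p 0.0101). Against FF_TAC, 2 of the 21 were lower in KO_TAC and 1 higher, beside 6.80% and 7.53% of all genes, namely the retinoid X receptors Rxrg (−0.68, SE 0.12, edgeR adjusted p 0.0025) and Rxra (−0.66, SE 0.15, adjusted p 0.0098) and Dio2 (2.23, SE 0.60, adjusted p 0.0220). No gene of this list was called in the other 9 comparisons.

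Partners of the thick filament were a list of 22 genes such as titin, myomesins, myosin chaperones and phosphatase subunits. Of 20 tested, 3 rose and 1 fell in KO_TAC against KO_sham, beside 14.3% and 11.5% of all genes, with a median of 0.01 against 0.02 over all genes. Myom3, an M-band protein, rose by 0.98 (SE 0.27, edgeR adjusted p 0.0193) and Ppp1r12a, a myosin phosphatase targeting subunit, by 0.40 (SE 0.13, adjusted p 0.0389), while its relative Ppp1r12b changed by −0.44 (SE 0.12, adjusted p 0.0184). The third that rose, Mylk2, was at 0.92 CPM in KO_TAC. Against FF_TAC 3 of the 20 were lower in KO_TAC, beside 6.80% of all genes: Ppp1r12b (−0.55, SE 0.12, edgeR adjusted p 0.0087), the myosin chaperone partner Smyd1 (−0.44, SE 0.11, adjusted p 0.0178) and titin, Ttn (−0.35, SE 0.08, adjusted p 0.0098).

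Of 9 smooth muscle and nonmuscle myosin genes, all tested, the light chains Myl12a and Myl6 rose in KO_TAC against KO_sham, by 0.96 (SE 0.29, edgeR adjusted p 0.0281) and 0.93 (SE 0.20, adjusted p 0.0062). Myl6 was also higher than in FF_TAC, by 0.71 (SE 0.20, edgeR adjusted p 0.0287). These are 2 of 9 higher and 0 lower in KO_TAC against KO_sham, beside 14.3% and 11.5% of all genes, and the median over the 9 was 0.33 beside 0.02 over all genes. Of 9 skeletal and developmental myosins only 3 passed the filter on low counts in the floxed cohort, and 1, Myh8, was called there, at 1.44 CPM in KO_TAC and 0.107 CPM in KO_sham. The calls in these 4 lists in KO_TAC share the haemoglobin and early response split of their libraries. Apart from Mhrt, the changes of these genes with the haemoglobin term are not reported here. Over all genes that term left 273 of 15596 called in KO_TAC against KO_sham and 1127 against FF_TAC. The part of the early response split was not tested.

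Across the 30 libraries, with the cohort mean taken off log2 CPM, the genes most like Myh7 among 10534 were Col8a1 (Pearson r 0.93), Ace (0.92), Enah (0.91), Cilp (0.90) and Postn (0.90). For Myh6 they were Gtf2i, Aldh6a1, Dhrs7c and Atp2a2 (0.94 each) and Svip (0.93), where Atp2a2 is the calcium pump of the sarcoplasmic reticulum. For Myl7 they were Myl4 and Sln (0.99 each), Mybphl (0.98), Tmem163 (0.96) and Cilp2 (0.93). Myh7 and Myh6 had an r of −0.58, and Myh7 and Mybpc3 one of 0.54. Myl7 had an r of −0.68 with Mybpc3, −0.67 with Myl3, −0.61 with Myl2 and −0.40 with Myh7. With Myh7b, Mylk3 and Myh6 its r was −0.07, 0.11 and 0.14. These points share libraries, depth and groups, and the values are descriptions.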

How the data were processed

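Poly(A) RNA of 30 hearts was sequenced with a stranded kit, per the labels' protocols. The authors deposited raw read counts per gene, whole numbers for 55487 Ensembl identifiers. The submitters' processing notes name HISAT2 2.1.0, featureCounts, Subread 1.5.1 and GRCm38. The annotation release and strand setting of the counting are not given in the sources used here. Symbols, coordinates and exon lengths came from GENCODE M21, which matched 55227 identifiers. Exon length is that of all annotated exons of a gene joined. For Myh7 it is 8616 bases, while its longest protein-coding transcript has 6230.

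Groups came from the genotype and treatment labels. Each cohort was fitted with 1 mean per group by edgeR 4.0.16 in R 4.3.3 (TMM, filterByExpr, quasi-likelihood F test, two-sided), with Benjamini-Hochberg adjustment over all genes tested, in 11 comparisons. Alternatives were DESeq2 1.42.0, limma 3.58.1 (voom with sample weights), RLE factors, TMM without mitochondrial genes, other filters on low counts, a replicate block, other sets of libraries, terms for haemoglobin (limit 100 CPM) and atrial transcripts, and leaving out each library. A fit of libraries with Sln under 1 CPM was added after seeing the data.

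The members and lists were chosen with earlier results of these data known. Named besides the members were up to 4 called genes of each list with the largest changes and, in the group with more, a mean CPM of 5 or above, and the 5 genes most correlated with Myh7, Myh6 and Myl7. Myh8 and Mylk2, under that level, were named after their values were seen. The 42 pairs of libraries within groups differed in their counts by a chi-square per degree of freedom of 6.29 to 234, so none was treated as a duplicate. The scripts were tested on simulated data. Intervals and floors from counts would cover counting error only and none is printed.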

Additional observations from a re-analysis of the deposited data

Results flagged for a closer look

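In 12 of 54 sets of 4 libraries (a member in a group), 1 library stood apart from the other 3 by Dixon's criterion, which chance alone passes in about 1 in 20. For Myh7 it was AAV_sham 2, at 764 CPM against 470 to 507 in the others of its group. Myh7b was low in FF_sham 2 (115 CPM against 211 to 225) and high in AAV_TAC 1 (214 CPM against 187 to 191).

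The other 9 concern the atrial light chains, in libraries that also held Sln. Myl4 stood apart in FF_sham 2 (1409 CPM), FF_TAC 1 (98.4 CPM), KO_TAC 1 (4262 CPM) and AAV_TAC 3 (338 CPM). Myl7 stood apart in FF_sham 2 (1116 CPM), FF_TAC 1 (75.8 CPM), KO_TAC 1 (3168 CPM), AAV_sham 2 (887 CPM) and AAV_TAC 3 (266 CPM). Groups of 3 hearts were not examined in this way. No set was found for Myh6, Myl2, Myl3, Mybpc3 or Mylk3.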

How the results depend on the processing

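Main counts of members called were 3 in KO_TAC against KO_sham, 2 in KO_TAC against FF_TAC, 1 in the averaged TAC effect and 0 elsewhere. In KO_TAC against KO_sham the count was 1 with only the groups compared, 0 with the haemoglobin term and 1 to 4 without one library (1 without KO_TAC 2 or 3). Over all genes, the first 2 of these fits called 2327 of 14993 and 273 of 15596. Without one library the calls ran from 1956 of 15854 (without KO_TAC 3) to 6440 of 15802 (without KO_TAC 1). In KO_TAC against FF_TAC it was 1 with no filter or the haemoglobin term, 0 with only the groups compared or haemoglobin-low libraries only, and 1 to 3 without one library (1 without FF_TAC 1 or 4 or KO_TAC 2, 3 or 4). In that order, these 4 settings called 1680 of 32688, 1127 of 15596, 557 of 14696 and 0 of 16941 genes. Without one library the calls ran from 1126 of 15914 (without FF_TAC 4) to 3845 of 15802 (without KO_TAC 1). The averaged effect gave 2 with voom, 0 with the atrial covariate and 0 to 2 without one library. Voom called 1219 of 15745 genes there and the atrial covariate left 18 of 15745. Without one library the calls ran from 15 of 16202 (without PBS_TAC 3) to 1155 of 16209 (without PBS_sham 1). DESeq2 gave 1 in FF_TAC against FF_sham and in AAV_TAC against AAV_sham, and voom 3 in the knockout interaction. These fits called 175 of 15596, 117 of 15745 and 2930 of 15596 genes. PBS_TAC against PBS_sham gave 1 with no filter, DESeq2 or voom and 0 to 3 without one library (3 without PBS_sham 1), and AAV_sham against PBS_sham gave 0 to 2 (2 without PBS_sham 1). Without PBS_sham 1 these comparisons called 1796 and 2821 of 16209 genes, against 5 and 2 in the main fit. In PBS_TAC against PBS_sham, 112 of 31335 genes were called with no filter, 370 of 15745 by DESeq2 and 252 of 15745 by voom. The causes were not tested.

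Signs turned for Myh7 in AAV_sham against PBS_sham with voom (0.011), in AAV_TAC against PBS_TAC without PBS_TAC 1 (0.054, range without one library −0.71 to 0.054) and in the vector interaction without PBS_TAC 1 (0.16) or AAV_TAC 3 (0.0003; range −0.59 to 0.16), and for Myl4 in KO_TAC against KO_sham with voom (−1.10) and without KO_TAC 1 (−5.99; range −5.99 to 2.80), and against FF_TAC without KO_TAC 1 (−2.37; range −2.37 to 9.19). Apart from leaving out libraries, log2 fold changes kept direction and side of the threshold in 275 cases, gained a call in 17, lost one in 15 and turned in 3.

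Same-numbered libraries correlated at −0.37 to 0.45 over 24 pairs in the floxed cohort and −0.41 to 0.40 over 19 in the AAV9 cohort. Of these pairs, 9 and 7 were over 0.1. Differently numbered libraries were not compared, so this does not settle whether replicate numbers pair the libraries. With the replicate block the averaged TAC effect called 0 members (Myh7 1.49, edgeR adjusted p 0.0547), Myl4 in KO_TAC against KO_sham turned to −2.53, and Myh7 in KO_TAC against FF_TAC was called (1.31, adjusted p 0.0404).

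Divided by exon length, the mean Myh7 share was 1.59% in FF_sham and 2.41% in KO_sham. By Spearman's rho, 3 of the 5 genes most like Myh7, 1 of those most like Myh6 and 4 of those most like Myl7 stayed. Myl7 under 1 CPM is near the limit of counting.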
